A study of Mus musculus with 4 samples.

Results

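The 38 protein-coding Hox genes described here lie in 4 clusters of the mouse genome, HoxA on chromosome 6, HoxB on chromosome 11, HoxC on chromosome 15 and HoxD on chromosome 2, and were taken by name from 21887 coding genes of the RefSeq annotation. The data are ATAC-seq peaks, the stretches of chromatin that the Tn5 transposase could enter, from hair follicle stem cells. These cells, which rebuild the follicle at each hair cycle, were sorted for lacking Ly-6A/E and for carrying CD34 and a marker that the labels spell CD45f. They came from Irx5KO mice (2 samples) and WT mice (2 samples). The Irx5 gene codes for an Iroquois protein, a transcription factor with a homeodomain. The sources used here do not give the Irx5KO allele or the strain, age and sex of the mice. Each genotype has 1 deposited peak list that pools its 2 samples, with 484992 peaks for Irx5KO and 498061 for WT on 21 chromosomes. The spread between animals is therefore not seen, no comparison below carries a test of genotype, and a difference between libraries cannot be told apart from a difference between genotypes. Each cluster was read from the first to the last of its member genes with 50 kb on each side, and a peak was called shared when it overlapped a peak of the other list by at least 1 bp.

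Hox genes encode homeodomain transcription factors that give cells their place along the body axis. Genes of 1 cluster stand in numbered order, and the low numbers act towards the head and the high numbers towards the tail and the ends of the limbs. Polycomb and Trithorax complexes hold these clusters in closed or open states, and skin keeps a memory of its position in its Hox expression. Hoxc13, at the high-number end of HoxC, is known for its control of hair keratin genes.

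Across the 4 windows, 885047 bp in all, 103 peaks were listed for Irx5KO and 68 for WT. Of these, 53 of the Irx5KO peaks and 15 of the WT peaks were found in that list only. The remaining 50 Irx5KO peaks and 53 WT peaks overlapped each other. In the whole lists, 21.8% of the Irx5KO peaks and 26.6% of the WT peaks were listed in 1 genotype only, so that WT had more such peaks genome-wide and Irx5KO had more of them at the Hox clusters. Irx5KO-only peaks made up 77.9% of the 68 genotype-only peaks of the windows (95% Wilson interval 66.7 to 86.2), against 44.4% over all chromosomes and 48.2% within 5 kb of any coding gene. The interval covers counting error only, and peaks of 1 cluster are not independent. Since these are bulk samples, a region open in fewer cells and a region with less signal per cell cannot be told apart.

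The sequences that follow show where peaks met the start of a Hox gene. Each is a RefSeq promoter of GRCm38.p6, 250 bases before to 50 bases after the annotated start, printed 5′ to 3′ on the strand of its gene. Hoxa5 (chr6:52204538-52204837, minus strand), Hoxb4 (chr11:96318017-96318316, plus strand) and the inner of the 2 starts of Hoxd11 (chr2:74682073-74682372, plus strand) are the promoters where both lists had a peak, and capitals mark the bases under a peak of both lists. Hoxa2 (chr6:52164782-52165081, minus strand) met a peak of Irx5KO only, and capitals mark its bases under that peak. The promoter of Hoxa3 (chr6:52213018-52213317, minus strand) met a WT peak only, marked in the same way. That WT peak (chr6:52212611-52213140) is a shared one. An Irx5KO peak begins at the same base (chr6:52212611-52212860) but ends before it reaches the promoter. Hoxa13 (chr6:52260831-52261130, minus strand) is shown as the member promoter richest in CpG dinucleotides, and no peak of either list reached it.
Hoxa5: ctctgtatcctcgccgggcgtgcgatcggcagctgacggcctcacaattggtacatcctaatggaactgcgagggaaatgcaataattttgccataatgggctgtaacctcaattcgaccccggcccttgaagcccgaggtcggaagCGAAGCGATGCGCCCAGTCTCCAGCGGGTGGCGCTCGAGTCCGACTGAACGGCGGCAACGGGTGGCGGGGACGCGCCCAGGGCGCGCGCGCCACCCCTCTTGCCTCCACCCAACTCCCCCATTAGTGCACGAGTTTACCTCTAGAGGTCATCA
Hoxb4: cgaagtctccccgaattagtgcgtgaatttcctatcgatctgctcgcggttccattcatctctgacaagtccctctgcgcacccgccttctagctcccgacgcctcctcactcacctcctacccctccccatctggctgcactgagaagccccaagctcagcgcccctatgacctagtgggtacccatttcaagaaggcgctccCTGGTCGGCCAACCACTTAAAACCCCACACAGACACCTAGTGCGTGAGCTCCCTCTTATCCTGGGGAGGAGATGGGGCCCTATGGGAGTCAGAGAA
Hoxd11: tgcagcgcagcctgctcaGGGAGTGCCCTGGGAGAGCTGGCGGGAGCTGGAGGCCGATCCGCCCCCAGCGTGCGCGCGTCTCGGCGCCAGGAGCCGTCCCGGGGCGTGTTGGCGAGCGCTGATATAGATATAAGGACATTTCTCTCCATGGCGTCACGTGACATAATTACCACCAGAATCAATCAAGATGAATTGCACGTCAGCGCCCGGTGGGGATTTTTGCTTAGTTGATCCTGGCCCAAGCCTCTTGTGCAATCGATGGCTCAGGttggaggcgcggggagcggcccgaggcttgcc
Hoxa2: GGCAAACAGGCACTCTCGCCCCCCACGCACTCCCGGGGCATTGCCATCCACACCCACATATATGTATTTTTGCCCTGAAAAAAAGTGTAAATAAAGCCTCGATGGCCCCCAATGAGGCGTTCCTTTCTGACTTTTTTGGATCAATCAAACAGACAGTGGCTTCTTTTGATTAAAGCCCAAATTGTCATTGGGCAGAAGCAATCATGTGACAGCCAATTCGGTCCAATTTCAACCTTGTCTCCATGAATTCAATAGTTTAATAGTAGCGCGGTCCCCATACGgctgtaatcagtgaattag
Hoxa3: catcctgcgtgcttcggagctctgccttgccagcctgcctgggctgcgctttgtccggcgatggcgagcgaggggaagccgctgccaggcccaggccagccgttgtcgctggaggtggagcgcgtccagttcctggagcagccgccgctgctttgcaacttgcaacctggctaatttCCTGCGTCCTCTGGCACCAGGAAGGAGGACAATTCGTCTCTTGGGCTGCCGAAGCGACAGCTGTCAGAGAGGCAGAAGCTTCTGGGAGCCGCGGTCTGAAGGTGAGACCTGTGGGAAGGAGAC
Hoxa13: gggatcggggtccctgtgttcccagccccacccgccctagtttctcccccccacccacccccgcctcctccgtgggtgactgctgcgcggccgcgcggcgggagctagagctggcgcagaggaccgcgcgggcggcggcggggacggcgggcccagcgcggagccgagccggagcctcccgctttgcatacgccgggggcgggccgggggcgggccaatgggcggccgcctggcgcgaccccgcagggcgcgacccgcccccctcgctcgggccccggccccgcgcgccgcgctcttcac

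Of these 300 bases, the Hoxa5 promoter had 203 under an Irx5KO peak and 153 under a WT peak. The Hoxb4 promoter had 96 under an Irx5KO peak and 176 under a WT peak. In the inner Hoxd11 promoter all 300 lay under an Irx5KO peak and 250 under a WT peak. The Hoxa2 promoter had 281 under an Irx5KO peak and 0 under a WT peak, while Hoxa3 had 0 under an Irx5KO peak and 123 under a WT peak.

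A promoter sequence was at hand for 22 of the 38 members, with 24 promoters in all. By cluster these were 9 of 10 members in HoxA, 3 of 10 in HoxB, 1 of 9 in HoxC and 9 of 9 in HoxD, so the values of this and the next paragraphs describe mainly HoxA and HoxD. The start window of 17 of these 22 genes met no peak of either list, against 27.6% of 17492 coding genes with an entry. Both lists had a peak at 3 members, Irx5KO only at 1 and WT only at 1, where 62.7%, 6.37% and 3.33% of coding genes stood in those states. A count within 1000 bp of the start, in place of the promoter itself, left 11 of the 22 members with no peak, against 18.0% of coding genes. It gave 5 members a peak in Irx5KO only, against 5.75% of coding genes, and 1 in WT only, against 3.62%.

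The Hox promoters were not poor in CpG, the dinucleotide that marks most open promoters in mammals. Their median CpG observed over expected was 0.626, against 0.567 over all coding promoters, and their median GC content was 57.7%, against 56.3%. Among coding promoters of the third quartile by CpG observed over expected, 88.1% had an Irx5KO peak and 81.8% a WT peak, while 2 of the 9 Hox promoters of that quartile had one in each list. In the quartile richest in CpG the shares were 95.7% in Irx5KO and 91.2% in WT, and 2 of 8 Hox promoters had a peak in each list. The 7 Hox promoters of the second quartile had none in either list, where 49.2% of coding promoters had an Irx5KO peak and 45.5% a WT peak. Within a quartile CpG content still varied. The Hox promoters of the second quartile lay at 0.257 to 0.405, where the quartile runs to 0.567, those of the third at 0.573 to 0.805, where it runs to 0.827, and those of the richest at 0.853 to 1.02. The part of CpG content within a quartile was not tested.

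**Figure D1:**
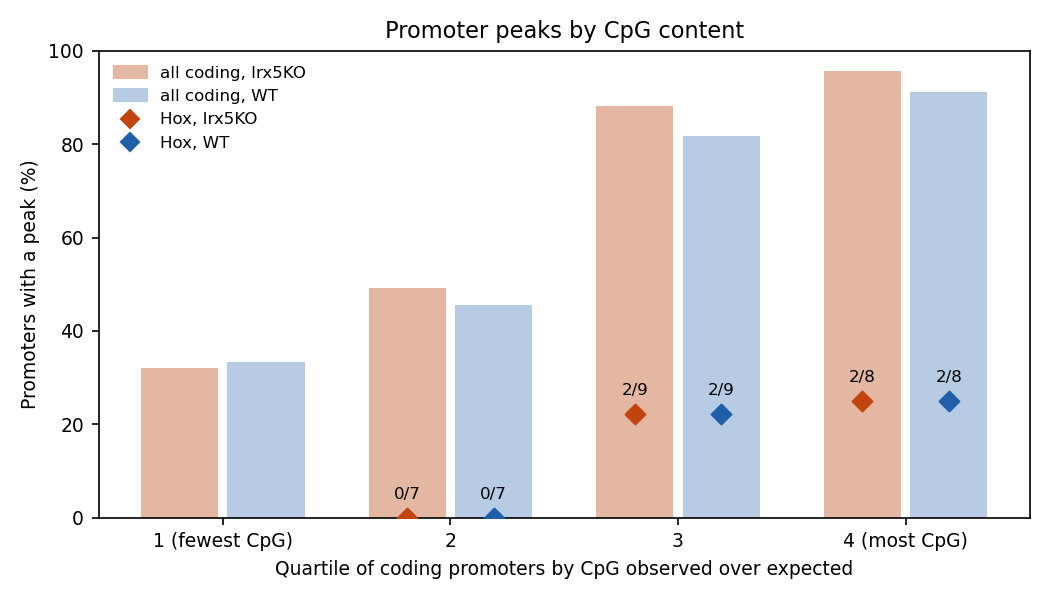
Share of promoters with a peak (percent, vertical axis) by quartile of coding promoters ordered by CpG observed over expected (horizontal axis); bars are all coding promoters and diamonds the Hox promoters, Irx5KO left of WT. In the quartile richest in CpG the bars stand at 95.7% in Irx5KO and 91.2% in WT, while 2 of 8 Hox promoters had a peak in each list.

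Short motifs were counted on both strands of the 24 promoters. CCAAT, the letters bound by NF-Y, stood in 15 of them (62.5%), against 37.4% of all promoters and 38.2% of coding ones. TATAAA, the TATA box, was in 16.7%, against 13.6% of all promoters and 12.6% of coding ones, and TAATNA, a core of many homeodomain sites, in 25%, against 26.5% of all promoters and 22.6% of coding ones. TTTATGG, a site preferred by caudal factors and posterior Hox proteins, was found at 1 member promoter, that of Hoxd4. That is 4.17%, against 2.75% of all promoters and 2.26% of coding ones. None of these motifs contains another, and a match to letters is no binding site.

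The peaks were uneven along the clusters. Over the stretch from groups 1 to 8, the low-number side, peaks covered 8.06% of bases in Irx5KO and 4.83% in WT, with 49 and 32 peaks. Over groups 9 to 13 they covered 3.46% in Irx5KO and 2.48% in WT, with 16 peaks in Irx5KO and 9 in WT. Both lists thus held fewer peaks at the high-number side, at 7.13 peaks per 100 kb in Irx5KO and 4.01 in WT, against 18.8 in Irx5KO and 12.3 in WT at the low-number side. The genome-wide level was 18.2 peaks per 100 kb in Irx5KO and 18.7 in WT. By number, the low-number side in Irx5KO was thus near it and the other 3 values were below. By coverage both sides were below the genome-wide 17.0% in Irx5KO and 17.5% in WT. Peaks up to 2000 bp wide covered 8.65% of the genome in Irx5KO and 8.59% in WT. No peak of the windows was wider than 1860 bp. The 50 kb beyond the lowest-numbered gene held 31 Irx5KO peaks and 24 WT peaks, and the 50 kb beyond the highest-numbered gene held 7 in Irx5KO and 3 in WT. Peaks were placed by their midpoint. The WT peak at chr15:102920441-102921190, which overlaps Hoxc13, therefore counts in the flank. The Irx5KO peak that overlaps it (chr15:102920651-102922430) counts in groups 9 to 13.

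**Figure D2:**
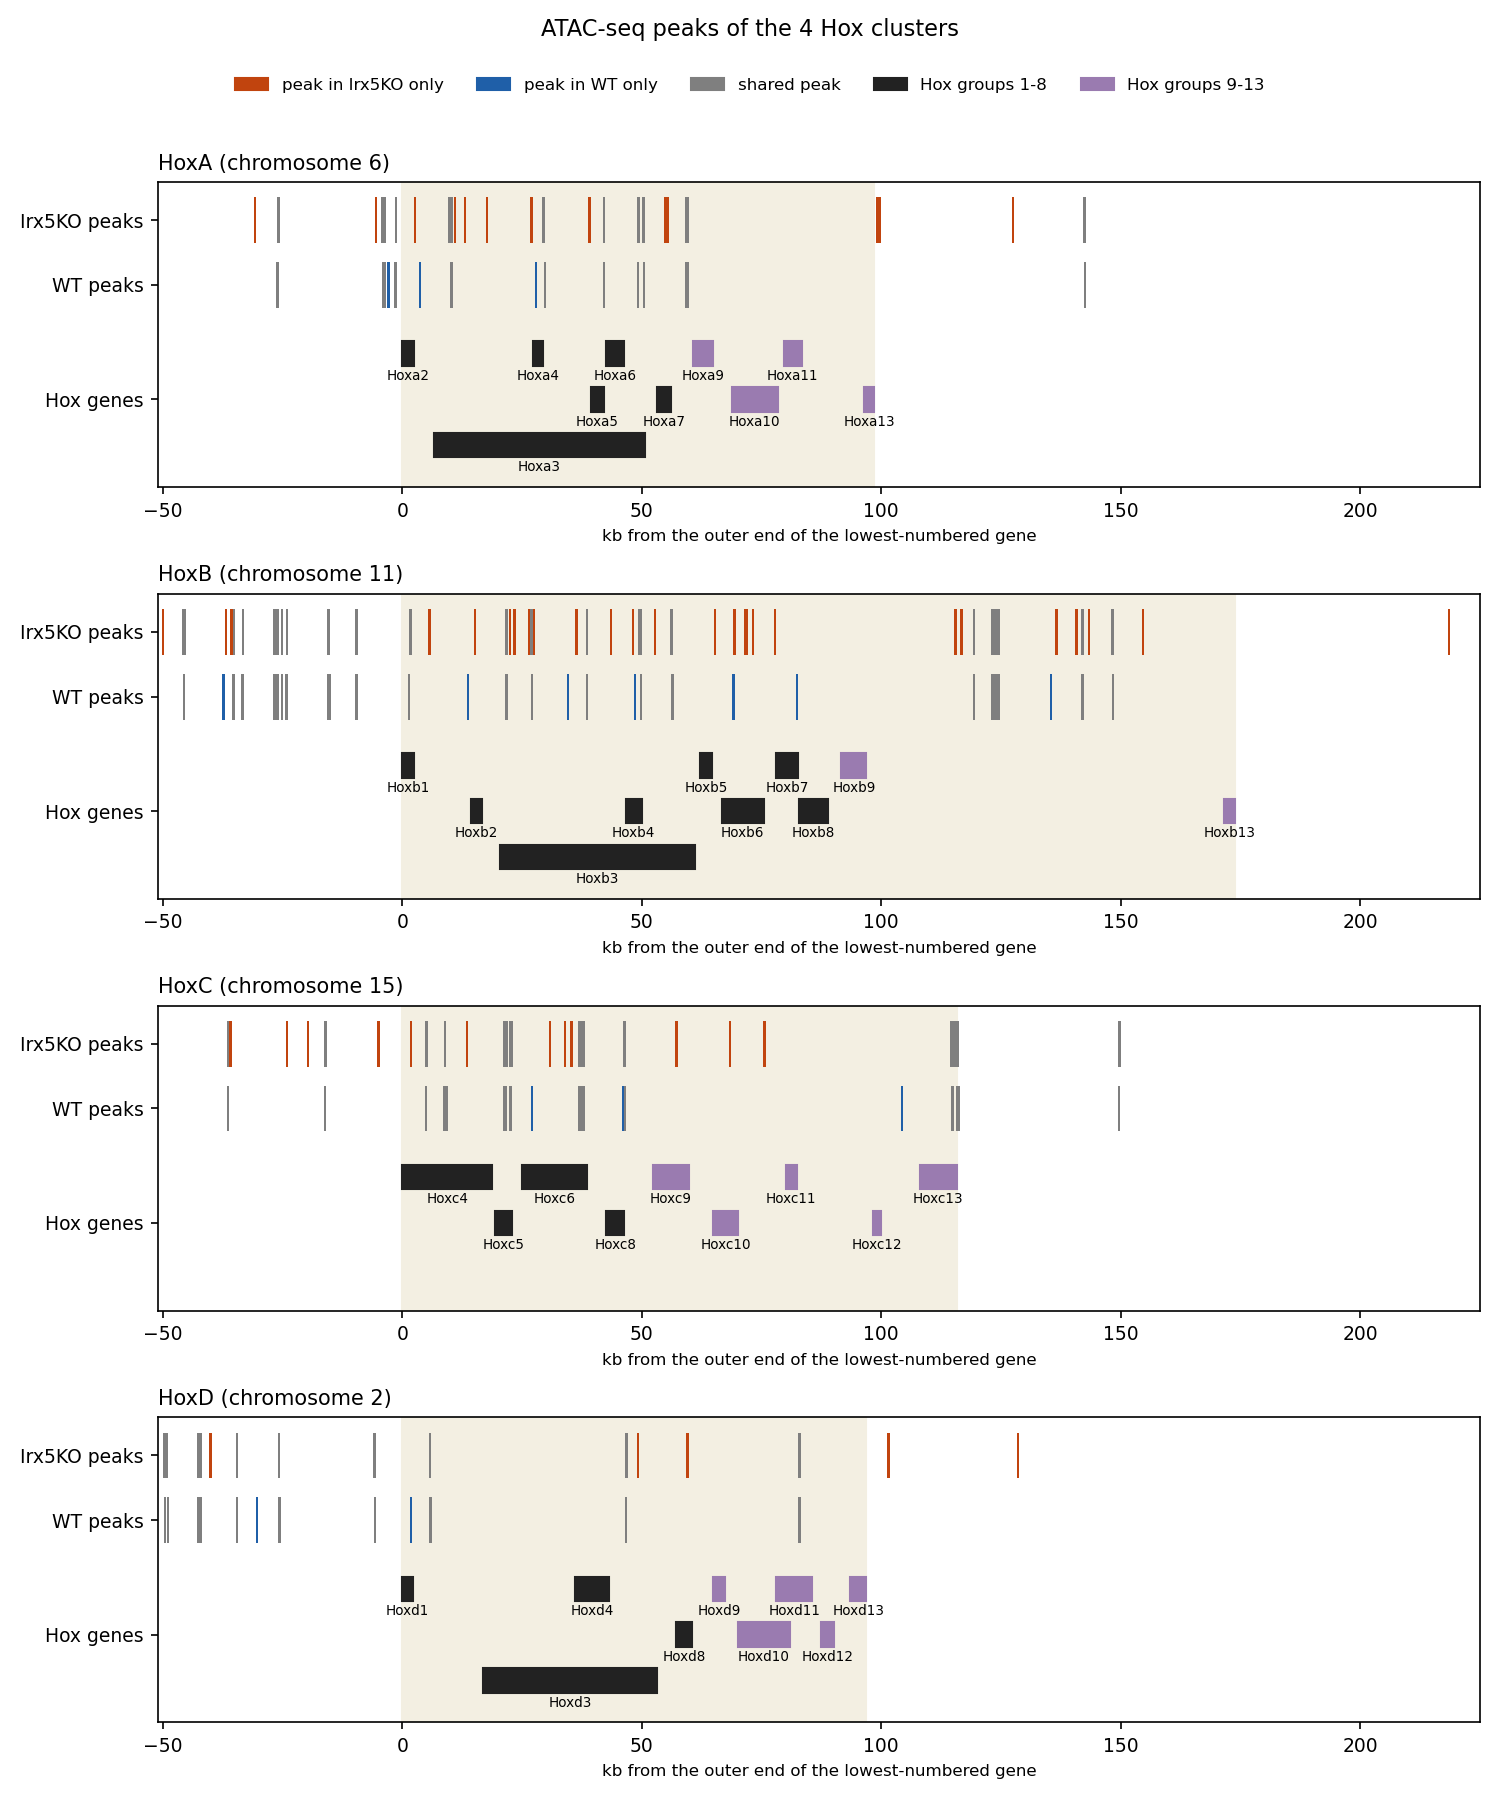
Maps of the 4 clusters, with distance in kb from the outer end of the lowest-numbered member gene on the horizontal axis; the upper row of ticks in each panel holds Irx5KO peaks, the lower row WT peaks, and the boxes below are Hox genes, drawn no narrower than 0.5 kb. Orange ticks (53, Irx5KO only) outnumber blue ticks (15, WT only), and the stretch of HoxA with Hoxa9, Hoxa10, Hoxa11 and Hoxa13 is empty over 39.2 kb in both rows.

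In HoxA, 21 peaks were listed for Irx5KO and 13 for WT, and 11 of the Irx5KO peaks and 3 of the WT peaks were in that list only. Groups 1 to 8 carried 12 Irx5KO peaks and 7 WT peaks, which covered 10.1% of that stretch in Irx5KO and 4.79% in WT. A single peak in each list lay at groups 9 to 13, beside Hoxa9, a gene known from blood stem cells and leukaemia. From there a stretch of 39.2 kb (chr6:52222211-52261380) with Hoxa9, Hoxa10, Hoxa11 and Hoxa13 held no peak of either list. Of all gaps between peaks of the combined lists, 0.273% were as long, and the median gap was 1.78 kb. This share counts gaps and not bases, and the stretch was taken as the longest gap of its cluster. In WT the gap ran on for 82.6 kb. In Irx5KO it ended at a peak of 890 bp (chr6:52261381-52262270), 501 bp upstream of the annotated start of Hoxa13, a gene of the distal limb and the genital tubercle. That peak scored above 75.3% of the Irx5KO list and lies between Hoxa13 and Hottip, a long noncoding RNA known to act on the high-number HoxA genes. The largest difference between the lists in a 10 kb bin of HoxA was at chr6:52172417-52182416, inside Hoxa3, with 16.5% of bases covered in Irx5KO and 4.84% in WT.

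In HoxB, the longest cluster, there were 45 Irx5KO peaks and 27 WT peaks, of which 25 in Irx5KO and 7 in WT were in that list only. Groups 1 to 8 held 21 Irx5KO peaks and 11 WT peaks. The 10 Irx5KO peaks and 5 WT peaks of groups 9 to 13 all lay between Hoxb13 and Hoxb9, and neither gene had a peak within 5 kb in either list. Hoxb13, known from prostate and tail, sat in a gap of 63.7 kb (chr11:96149791-96213500), and Hoxb8 and Hoxb9 in another of 32.8 kb (chr11:96252841-96285610). The widest peak of the cluster stood in the spacer between them in both lists, at 1810 bp in Irx5KO (chr11:96243491-96245300) and 1860 bp in WT (chr11:96243501-96245360). It scored above 84.9% of the Irx5KO list and above 82.3% of the WT list. In WT this was also the best-scored peak of HoxB, whereas in Irx5KO the best-scored one lay 9447 bp outside Hoxb1 (chr11:96377701-96378030) and was shared. The 10 kb with the largest difference of all 4 clusters was chr11:96294316-96304315, over most of Hoxb6 and the low-coordinate part of Hoxb5, with 15.5% of bases covered in Irx5KO and 2.50% in WT. The Irx5KO peaks of this bin ranked above 1.48% to 20.7% of their list, and the WT peak above 21.6% of its list.

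In HoxC, there were 23 Irx5KO peaks and 17 WT peaks, of which 12 in Irx5KO and 3 in WT were in that list only. Hoxc4, Hoxc5, Hoxc6 and Hoxc8, genes of the trunk, carried 12 Irx5KO peaks and 11 WT peaks, which covered 11.4% of their stretch in Irx5KO and 9.01% in WT, the highest of these values among the clusters in each list. From Hoxc9 to Hoxc12 the WT list was empty over 57.7 kb (chr15:102932661-102990330). The Irx5KO list had 3 peaks there, in Hoxc9, in Hoxc10 and 4420 bp from Hoxc11, each 200 to 220 bp wide. The largest 10 kb difference was at chr15:103001131-103011130, inside Hoxc6, with 8.40% covered in Irx5KO and 2.40% in WT. At Hoxc13, Irx5KO had 1 peak of 1780 bp across the gene's lower end (chr15:102920651-102922430), and WT had 2 peaks in the same place, of 750 bp and 690 bp. The Irx5KO peak scored above 66.3% of its list, and the WT ones above 47.4% and 35.4% of theirs. Hoxc13 was one of only 2 members of groups 9 to 13 with a gene-end peak in both lists, together with Hoxa9.

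In HoxD, there were 14 Irx5KO peaks and 11 WT peaks, the fewest of the 4 clusters, of which 5 in Irx5KO and 2 in WT were in that list only. Between its first and last gene only 5 Irx5KO peaks and 4 WT peaks were listed, covering 2.10% of bases in Irx5KO and 1.26% in WT. The flank beyond Hoxd1 held 7 peaks in each list, with 5.98% covered in Irx5KO and 6.20% in WT, and was the flank of any cluster where the lists were most alike in number. It holds the widest and best-scored peak of the window in both lists, 1010 bp at the same coordinates (chr2:74806941-74807950), above 98.5% of the Irx5KO list and 98.4% of the WT list. Hoxd4 lay in a gap of 40.6 kb and Hoxd9 and Hoxd10 in one of 22.8 kb. Hoxd12 and Hoxd13, which pattern the digits, lay in a gap of 18.3 kb in the combined lists and of 69.8 kb in WT. Of all gaps of the combined lists, 1.3% were as long as the one of 22.8 kb and 2.36% as long as the one of 18.3 kb. The largest 10 kb difference, at chr2:74698225-74708224 over Hoxd8 and Hoxd9, was 6% covered in Irx5KO and 0.00% in WT.

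**Figure D3:**
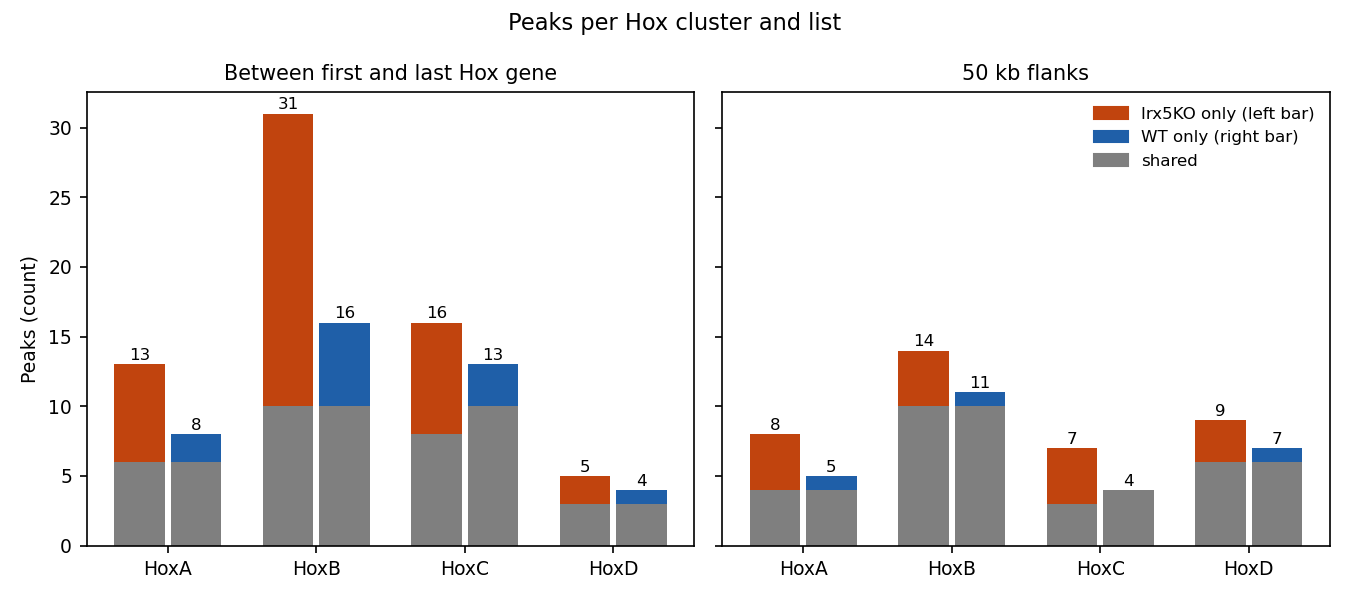
Number of peaks (vertical axis) in each cluster between its first and last member gene (left panel) and in its 50 kb flanks (right panel), Irx5KO as the left bar and WT as the right bar, split into shared and genotype-only peaks. HoxB shows the largest gap inside a cluster, with 31 Irx5KO peaks and 16 WT peaks.

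The direction of the genotype-only peaks was alike in the 4 clusters. Irx5KO-only peaks made up 78.6% of 14 in HoxA, 78.1% of 32 in HoxB, 80.0% of 15 in HoxC and 71.4% of 7 in HoxD. On the whole chromosomes the shares were 44.6% on chromosome 6, 50.2% on chromosome 11, 46.2% on chromosome 15 and 46.6% on chromosome 2. The Wilson intervals of HoxA (52.4 to 92.4), HoxB (61.2 to 89.0) and HoxC (54.8 to 93.0) lay above the share of their chromosomes, and that of HoxD (35.9 to 91.8) contained it. These intervals cover counting error only, and neighbouring peaks are not independent, so they are no test of a cluster. Between the first and last genes the share was 76.0% of 50, and in the flanks 83.3% of 18. In 10 kb bins, 48 of 90 were covered more in Irx5KO and 9 more in WT, while 36.5% of genome bins were covered more in Irx5KO and 45.9% more in WT. Genome bins include stretches far from genes. Around coding genes, with 5 kb on each side, 57.2% were covered more in Irx5KO and 38.8% more in WT. Neither list had a base under a peak in 31 of the 90 bins (34.4%), against 14% of genome bins. The 2 lists followed the same pattern along the clusters, with a Spearman correlation of 0.82 over the 90 bins, which share the layout of the clusters.

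Most genotype-only peaks ranked low, at the Hox clusters as in the whole lists. The score in the lists is the authors' own value for each peak and was only ranked within its list. The 53 Irx5KO-only peaks had a median rank above 17.6% of the Irx5KO list, and the 15 WT-only peaks above 10.6% of the WT list, where the medians of all such peaks were 15.5% in Irx5KO and 18.0% in WT. The shared peaks of the windows had medians of 46.4% in Irx5KO and 35.4% in WT, against 60.2% in Irx5KO and 62.6% in WT for all shared peaks. In the upper 50% of the lists by score, 29 Irx5KO peaks and 18 WT peaks of the windows were left, of which 7 and 0 were in that list only. Of the 7 Irx5KO-only peaks, 4 lay in the HoxC window, the best of them (chr15:103072671-103072880) 35815 bp outside Hoxc4, and 1 was the peak beside Hoxa13. Over all chromosomes, 8366 Irx5KO-only peaks (7.90%) and 11408 WT-only peaks (8.60%) were in the upper 50% of their lists. None of the 7 lay in HoxD.

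**Figure D4:**
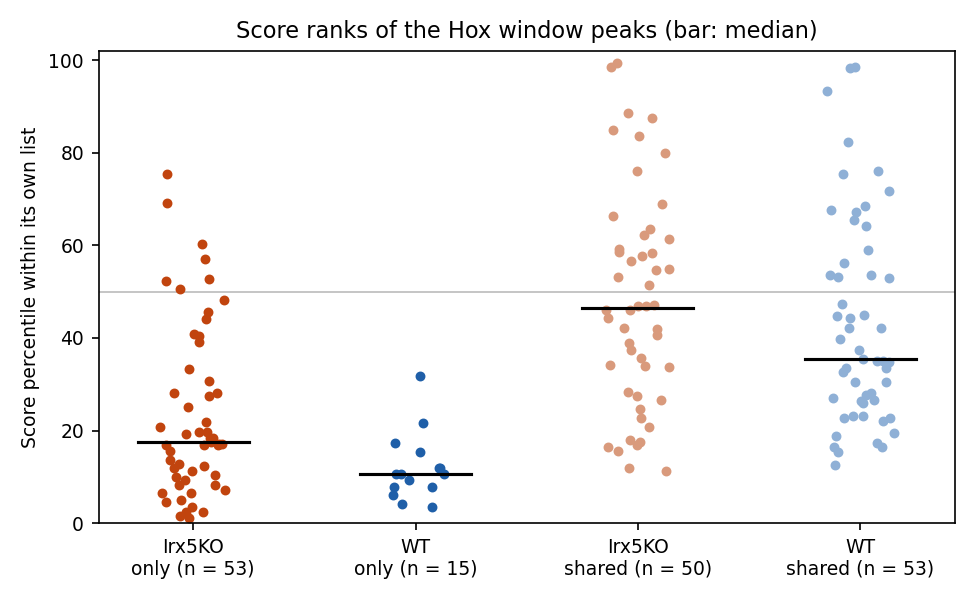
Rank of each peak of the 4 windows by score within its own list (percentile, vertical axis) for peaks found in 1 list only and for shared peaks, Irx5KO left of WT; the black bar is the median. The 15 WT-only peaks all lie below the middle of their list, and 7 of the 53 Irx5KO-only peaks lie above it.

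In shared pairs inside the clusters, the summits of the lists lay farther apart than in the flanks. Among the 46 pairs in the windows where 1 peak met exactly 1 peak of the other list, the Irx5KO peak was the wider in 26 and the WT peak in 19. That is 56.5% wider in Irx5KO, against 41.4% of 293016 such pairs genome-wide. Between the first and last genes, the summits of 39.1% of 23 pairs lay within 50 bp of each other, against 78.3% of 23 pairs in the flanks and 62.2% genome-wide. The median widths of the 23 inner pairs were 530 bp in Irx5KO and 410 bp in WT, against 390 bp and 330 bp for the 23 flank pairs. The pairs are few, and the part of peak width in the summit distance was not tested. Of the peaks between the first and last genes, 49 of 65 in Irx5KO and 31 of 41 in WT overlapped a Hox gene, 75.4% and 75.6%, where Hox genes make up 56.4% of the bases.

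The state of each member was then read at its gene ends, as a peak within 1000 bp of either end. Both lists had such a peak at 13 of the 38 members, where 75.2% of all coding genes had one. These were Hoxa3, Hoxa4, Hoxa5, Hoxa6 and Hoxa9 in HoxA, Hoxb1, Hoxb2, Hoxb4 and Hoxb7 in HoxB, and Hoxc5, Hoxc6, Hoxc8 and Hoxc13 in HoxC. HoxD had no member of this kind. At Hoxb2 and Hoxb7 the peaks of the lists did not overlap each other. Irx5KO alone had a gene-end peak at 5 members, against 6.07% of coding genes, and WT alone at 2, against 3.99%. Neither list had one at 18 members, against 14.7% of coding genes. In all, 47.4% of members had a gene-end peak in Irx5KO (32.5 to 62.7) and 39.5% in WT (25.6 to 55.3). Of the 16 members of groups 9 to 13, 13 had none in either list, and of the 22 members of groups 1 to 8, 5 had none.

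The 5 members with a gene-end peak in Irx5KO only were Hoxa2, Hoxa7, Hoxa13, Hoxb5 and Hoxd8. At Hoxa2, which sets the identity of the second pharyngeal arch, the Irx5KO peak of 440 bp (chr6:52164801-52165240) covered the promoter printed above, and the nearest WT peak lay 1040 bp upstream of the start. At Hoxa7 the Irx5KO peak of 920 bp (chr6:52217071-52217990) lay inside the gene. At Hoxb5, which acts in the enteric nervous system, the Irx5KO peak of 300 bp (chr11:96302811-96303110) ranked above only 1.48% of the Irx5KO list. The Hoxd8 peak of 600 bp (chr2:74705211-74705810) ranked above 11.3% of that list, and the Hoxa7 and Hoxa2 peaks above 27.4% and 18.4%. Thus the Hoxa13 peak alone of the 5 stood in the upper 50% of the list.

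The 2 members with a gene-end peak in WT only were Hoxb8, known from grooming behaviour and blood progenitors, and Hoxd1, known from pain-sensing neurons of mice. The WT peak near Hoxb8 (chr11:96285611-96285960, 350 bp) lay within the neighbouring Hoxb7 and ranked above 9.37% of the WT list. The WT peak inside Hoxd1 (chr2:74763161-74763550, 390 bp) ranked above 11.9%. Both ranked low in the list.

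With a window of 500 bp the Irx5KO-only members were 3 and the WT-only members also 3, against 6.67% and 4.04% of coding genes, so the excess of Irx5KO-only members rests on the window. Hoxa7, Hoxa13 and Hoxd8 had no peak of either list at this width, Hoxc6 became Irx5KO only and Hoxb2 WT only. With 3000 bp, 20 members had a peak in both lists and 11 in neither, against 88.9% and 5.03% of coding genes.

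The 18 members with no gene-end peak in either list were Hoxa10 and Hoxa11 in HoxA, Hoxb3, Hoxb6, Hoxb9 and Hoxb13 in HoxB, Hoxc4, Hoxc9, Hoxc10, Hoxc11 and Hoxc12 in HoxC, and Hoxd3, Hoxd4, Hoxd9, Hoxd10, Hoxd11, Hoxd12 and Hoxd13 in HoxD. Not all of these genes were bare. Hoxb3, the longest of the HoxB genes, had 13 Irx5KO peaks and 7 WT peaks in its body or within 1 kb, all of them more than 1000 bp from its ends. Its annotated span takes in all of Hoxb4, to which 2 of these peaks in each list also belong. The span of Hoxa3 likewise takes in Hoxa4, Hoxa5 and Hoxa6, and that of Hoxd3 takes in Hoxd4. Hoxc4 had 4 Irx5KO peaks and 3 WT peaks and Hoxb6 had 3 Irx5KO peaks and 1 WT peak. Hoxd11 carried its shared peak at its inner start, more than 1000 bp from either gene end.

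Coverage of each gene with 5 kb on each side gave a measure that does not turn on the gene ends. Its median over the 38 members was 4.04% in Irx5KO and 2.19% in WT, against 9.20% in Irx5KO and 8.19% in WT over all coding genes. Below the all-gene median lay 27 members in Irx5KO and 31 in WT, and 22 in Irx5KO and 24 in WT fell in the lowest quartile of coding genes. Groups 1 to 8 had medians of 7.57% in Irx5KO and 5.47% in WT, and groups 9 to 13 of 1.44% in Irx5KO and 0.00% in WT. Coverage was higher in Irx5KO at 27 members, higher in WT at 6 and equal at 5, where 57.2% of coding genes were covered more in Irx5KO. The margins of neighbouring Hox genes overlap, so the same peak can count for several members, and the members are not independent. The 5 equal members, Hoxa10, Hoxa11, Hoxb9, Hoxb13 and Hoxd9, had no peak of either list within 5 kb, which held for 2.28% of coding genes.

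The best covered members were Hoxa2 in HoxA, Hoxb4 in HoxB, Hoxc6 in HoxC and Hoxd1 in HoxD. Hoxa2 had 16.8% in Irx5KO and 17.2% in WT, although its gene-end peak was in Irx5KO only. Hoxb4, which is used to expand blood stem cells, had 10.7% in Irx5KO and 6.73% in WT. Hoxc6 had 17.9% in Irx5KO and 12.2% in WT, and Hoxd1 had 2.55% in Irx5KO and 5.92% in WT. Hoxd1 was thus at once the best covered gene of HoxD and the member with the largest difference towards WT.

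The largest differences towards Irx5KO within the clusters were at Hoxa13, Hoxb6, Hoxc6 and Hoxd8. Hoxb6 had 9.92% in Irx5KO and 1.33% in WT, the widest difference of all 38. The Irx5KO peaks counted there were all in that list only and ranked low, above 1.48% to 21.8% of it. Among them, the peak at chr11:96298751-96299020 ends directly beside the WT-only peak at chr11:96299021-96299270. Hoxa13 had 7.40% in Irx5KO and 0.00% in WT, and Hoxd8 had 4.50% in Irx5KO and 0.00% in WT. Hoxa7 had 19.3% in Irx5KO, the highest value of any member in either list, and 13% in WT. Towards WT the largest differences in the other clusters were at Hoxa9, Hoxb8 and Hoxc12. Hoxa9 had 5.11% in Irx5KO and 5.74% in WT, and Hoxb8 had 0.0942% in Irx5KO and 2.20% in WT. Hoxc12, a gene of the differentiating follicle, had 0.00% in Irx5KO and 2.29% in WT. Hoxc13 was covered to 10.1% in Irx5KO and 9.67% in WT, close to each other and above the all-gene median in both lists.

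The remaining members without a gene-end peak filled the range between these. In HoxB, Hoxb3 had 9.90% of bases covered in Irx5KO and 5.76% in WT, and Hoxb5, with its gene-end peak in Irx5KO only, had 4.52% in Irx5KO and 1.98% in WT. In HoxC, Hoxc4 had 11.8% in Irx5KO and 8.80% in WT, above the all-gene median in both lists. Hoxc9, Hoxc10 and Hoxc11, which pattern the thoracic to lumbosacral levels, had 1.15%, 1.39% and 1.81% in Irx5KO and 0.00% each in WT, and Hoxc9 was the least covered gene of its cluster. Among the HoxD genes, 6 were covered to a small extent. Hoxd3 had 1.62% in Irx5KO and 0.54% in WT, and Hoxd4 had 2.68% in Irx5KO and 1.45% in WT. Hoxd10 had 1.82% in Irx5KO and 1.20% in WT, and Hoxd11 had 2.18% in Irx5KO and 1.43% in WT. Hoxd12 had 2.99% in Irx5KO and 1.97% in WT, and Hoxd13 had 1.49% in Irx5KO and 0.00% in WT. All 6 were below the all-gene medians, and each was covered more in Irx5KO. These 6 are not independent. The bases at Hoxd10, Hoxd11 and Hoxd12 came from the same shared peak (chr2:74682011-74682390 in Irx5KO). Hoxd3 and Hoxd4 both drew on the peak at chr2:74718081-74718540. Hoxd13 rested on an Irx5KO peak of 200 bp (chr2:74663501-74663700) that ranked above only 2.33% of the list.

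**Figure D5:**
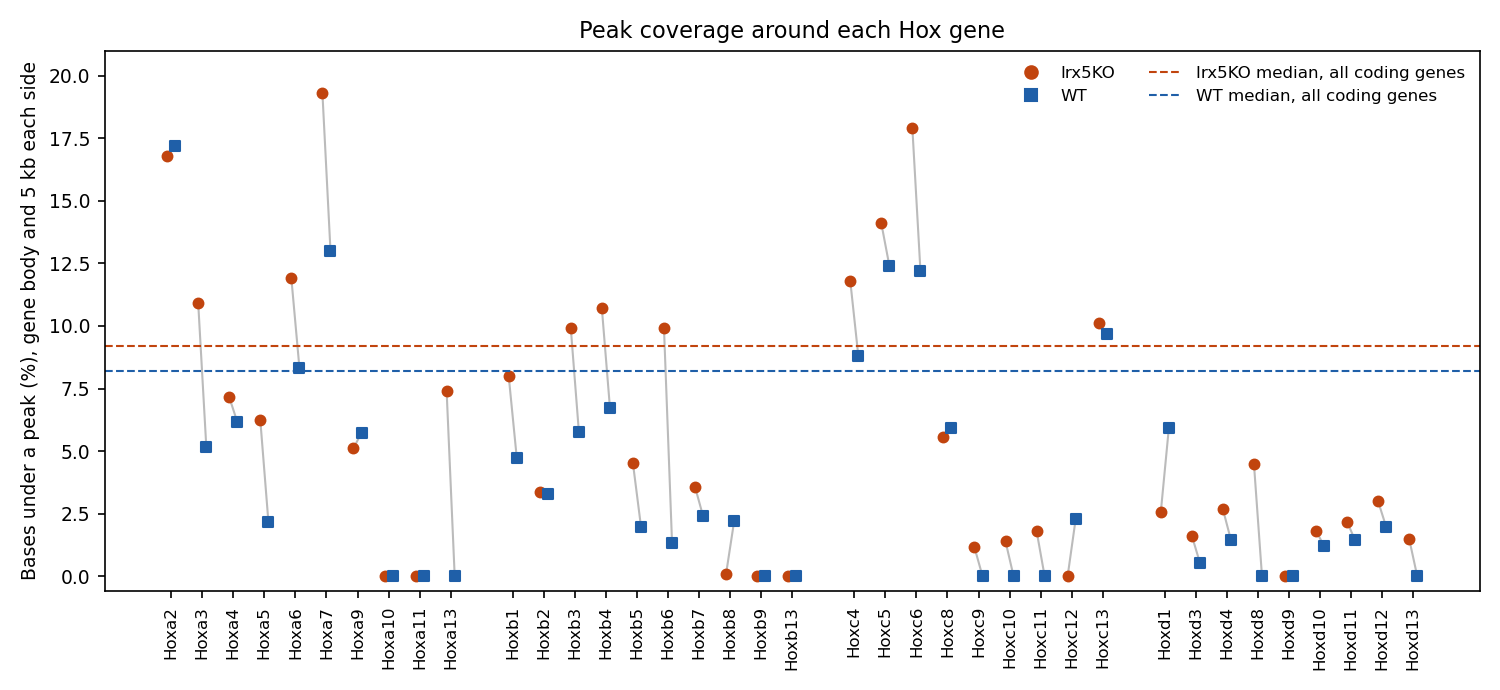
Bases under a peak (percent, vertical axis) in each Hox gene with 5 kb on each side, for Irx5KO (orange circles, left) and WT (blue squares, right); dashed lines are the medians over all coding genes, 9.20% in Irx5KO and 8.19% in WT. Points of groups 9 to 13 in HoxA, HoxB, HoxC and HoxD lie mostly near 0, with Hoxc13 above both lines.

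The clusters also hold microRNA genes, whose products are known to act on Hox messenger RNAs. Their mature 5p forms are printed from RefSeq with the seed, bases 2 to 8, in capitals, because genes of different clusters share it. The miR-10 pair shares 1 seed and the miR-196 genes another.
miR-10a-5p: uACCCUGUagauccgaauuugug
miR-10b-5p: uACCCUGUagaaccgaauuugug
miR-196a-5p: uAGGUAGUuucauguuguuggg
miR-196b-5p: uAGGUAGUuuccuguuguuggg
miR-615-5p: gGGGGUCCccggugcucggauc

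The 3 miR-196 genes, Mir196b between Hoxa9 and Hoxa10, Mir196a-1 beside Hoxb9 and Mir196a-2 between Hoxc9 and Hoxc10, had no peak within 1 kb in either list, and neither did Mir10b within Hoxd4. The share of all microRNA genes without such a peak was not counted, and the median gap between peaks of the combined lists is 1.78 kb. Their lack of a peak is therefore not shown to be particular to the Hox clusters. Mir10a, near Hoxb4, had 1 peak within 1 kb in each list. The hairpin of Mir615 (chr15:103014910-103015001), inside Hoxc5, lay under an Irx5KO peak of 1100 bp (chr15:103014821-103015920). In WT it fell between 2 peaks, both within 1 kb, and the nearer one began at 103015061.

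Of the long noncoding RNA genes of the windows only some are named here. Gm30528 in HoxC had the most, with 7 Irx5KO peaks and 4 WT peaks within 1 kb. Hoxb5os and Hoxb3os each had 5 Irx5KO peaks and 1 WT peak, and Hoxaas3 had 4 in Irx5KO and 3 in WT. Hotairm1, beside Hoxa2, had 2 in Irx5KO and 3 in WT, and Hotairm2 had 2 in each list. Hottip had 1 Irx5KO peak and 0 WT peaks. Haglr, beside Hoxd1, had 1 Irx5KO peak and 2 WT peaks. Hotair, a HoxC RNA described with Polycomb in human fibroblasts, and Hoxa11os had none in either list. These genes overlap or adjoin Hox genes, so most of their peaks are those already counted.

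Gene groups that work with the Hox proteins were read in the same way. Of 9 Hox cofactor genes of the Pbx, Meis and Pknox families, 8 showed a peak at a gene end in both lists and Meis3 in neither, with 54 Irx5KO-only and 53 WT-only peaks within 5 kb. Of 15 Polycomb genes, 14 had one in both lists and Cbx7 in neither, with 21 Irx5KO-only and 13 WT-only peaks. Of 7 Trithorax and demethylase genes, 6 had one in both lists, and Kdm6b, an H3K27 demethylase, in Irx5KO only. Near these 7 genes, 11 peaks were in Irx5KO only and 4 in WT only. Other clustered homeobox genes stood between these and the Hox genes, with 4 of 8 in both lists. Evx1 and Dlx4 showed one in Irx5KO only, Dlx1 in WT only and Evx2, the neighbour of Hoxd13, in neither. Around these 8 genes, 14 peaks were in Irx5KO only and 5 in WT only, or 73.7% in Irx5KO (51.2 to 88.2). Of the 6 ParaHox and caudal genes, 2 had one in both lists, Pdx1 in Irx5KO only and 3 in neither, and here 4 peaks were in Irx5KO only and 7 in WT only. The coding genes of the Polycomb and cofactor groups were thus near the 75.2% of all coding genes or above it in both lists, and the Hox members were below it.

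The excess of Irx5KO-only peaks was not seen at the Hox genes alone. Within 5 kb of the 38 members 35 peaks were in Irx5KO only and 12 in WT only, so that Irx5KO held 74.5% of them (60.5 to 84.7). Near 10 genes of hair follicle stem cells and basal epithelium 54 were in Irx5KO only and 16 in WT only, or 77.1% in Irx5KO (66.0 to 85.4). At all 10 of these genes both lists showed a gene-end peak, and their median coverage was 11.7% in Irx5KO and 7.66% in WT. Near markers of other cell types, Irx5KO-only and WT-only peaks numbered 14 and 5 for dermal fibroblast and papilla genes, 17 and 12 for endothelial, 9 and 5 for melanocyte, 4 and 2 for nerve and muscle, and 7 and 7 for immune genes. None of these 5 lists had more WT-only peaks, and the fibroblast share of 73.7% was close to that of the Hox genes. Their gene-end states were mixed. Of 7 dermal fibroblast and papilla genes, 4 showed one in both lists and Pdgfra and Twist2 in Irx5KO only. Of 4 immune genes 1 had one in both lists and Ptprc and Cd74 in WT only, and of 4 melanocyte genes 2 had one in both lists and Mlana and Tyr in WT only. Of 4 endothelial genes 2 had one in both lists and Cdh5 in WT only, and of 4 nerve and muscle genes 2 had one in both lists and Des in Irx5KO only. Their part in the Hox results was not tested.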

How the data were processed

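ATAC-seq of sorted hair follicle stem cells was deposited by the authors as 1 peak list for Irx5KO and 1 for WT, each pooling the 2 samples of its genotype. The lists hold peak positions and a score per peak, which the authors' peak caller gave. The submitters' processing notes name Genrich 0.6, Bowtie2, cutadapt 2.9, ChIPseeker 1.24.0, deepTools 3.4.2, FastQC and build mm10, without roles or settings. Per the labels' protocols, the libraries were paired-end and a nominal depth is stated per sample, but the depth behind each list is unknown. No peak is under 200 bp and no score is under 50, so a region with fewer reads can go unlisted.

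Peaks on 21 chromosomes were used. Gene positions, promoters and miRNAs came from RefSeq tables of GRCm38.p6, the same build as mm10. Overlap, coverage and gaps were computed in Python 3.11.15 with numpy 2.4.6 and pandas 2.3.3, tested on simulated data and against bedtools 2.31.1. Coverage is the share of bases under at least 1 peak, and gene-end states used a reach of 1000 bp from both gene ends. Scores were ranked within their own list. Shares carry 95% Wilson intervals. With 1 pooled list per genotype, no test was made and no sample could be left out. All 38 members were accounted for. Full values were given to those with a peak at a gene end in 1 list or neither, and to the best and least covered and the most different genes and bins of each cluster. Hoxc13 was added to these by name. The members and lists were chosen with earlier results of these data known. Alternatives were the overlap, the score threshold, the peak width, the flank, the gene-end window and equal list lengths.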

Additional observations from a re-analysis of the deposited data

How the results depend on the processing

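No paired analysis was possible because each genotype's samples are pooled in 1 list, and for the same reason no replicate could be left out. When only the better-scored 50% of a list was kept, the windows held 29 Irx5KO and 18 WT peaks, of which 7 and 0 were in that list only, so the Irx5KO-only share was 100%. They covered 1.72% in Irx5KO and 0.977% in WT. Gene-end peaks were then in both lists at 0 members, in Irx5KO only at 3, in WT only at 0 and in neither at 35, against 40.1%, 11.8%, 2.63% and 45.5% of coding genes. With no flank, and counting any overlap with the stretch in place of the peak's midpoint, the counts were 65 in Irx5KO and 42 in WT, covering 5.94% and 3.74%. A gene-end window of 500 bp gave 3 Irx5KO-only and 3 WT-only members, against 5 and 2 as reported, and one of 3000 bp gave 20 in both lists and 11 in neither. Within 1000 bp of the start, 5 members had a peak in both lists, 5 in Irx5KO only and 11 in neither. Over coding genes these shares were 72.7%, 5.75% and 18.0%. These settings differ by construction in the peaks or the stretch they admit. Requiring 50% overlap left 56 peaks in Irx5KO only and 22 in WT only, or 71.8% in Irx5KO. Peaks up to 2000 bp wide and lists of equal length left the window counts as they were. Of 86 alternative values 58 were classed as the same as the reported value and 28 as moved. The first class was broad and held the 22 WT-only peaks, against 15 as reported. Of the 86, 24 were differences between Irx5KO-only and WT-only peaks of a cluster, none of which changed sign, and that of HoxD was 0 in the better-scored peaks, against 3 as reported. Depth per list is not known, so an unlisted peak does not show closed chromatin.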
